A study of Arabidopsis thaliana with 6 samples.

Results

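The 4 genes described here act in protein folding in the endoplasmic reticulum (ER) and in the unfolded protein response of Arabidopsis thaliana. They are ATERDJ3B (AT3G62600), CRT1b (AT1G09210), BZIP60 (AT1G42990) and BZIP28 (AT3G10800). They were chosen by locus, with earlier results of these data known, as genes to which an array probe set maps alone. Each had 1 such probe set, so 4 of 22746 tested probe sets, and 4 of 13356 genes with a probe set of their own, are described in full. Transcript levels were compared between the ka120 mutant and the wild type (WT, accession Col-0), with 3 biological replicates and 1 array per replicate. KA120 is a nuclear transport receptor of the importin-beta type, and the sources used here do not name the mutant allele. Plants of both genotypes were untreated and grew on soil at 22 degrees C with 12 h of light and 12 h of dark. The records call the material mature leaf after 4 weeks of growth in one place and the entire rosette at 3 weeks in another. Either is a mixture of cell types, in which more cells of a type and more RNA per cell cannot be told apart.

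Proteins bound for the secretory pathway and the plasma membrane fold in the ER with the help of Hsp70-type chaperones (BiP) and their J-domain partners, of the lectin chaperones calnexin and calreticulin, and of disulfide isomerases. When unfolded proteins accumulate, membrane-anchored factors are released to the nucleus and raise the transcription of these helpers and of the machinery that sends misfolded proteins to degradation. In leaves the same helpers are known for the maturation of immune receptors and for the secretion of defence proteins.

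All 4 genes were called higher in ka120 (limma, Benjamini-Hochberg adjusted p under 0.05 over all probe sets), where 19.4% of all probe sets were called higher, 16.5% lower and 35.9% in either direction. Their median difference was 1.503 on the log2 scale, against -0.02 over all tested probe sets. All 4 also had every ka120 array above every WT array, as did 23.8% of all probe sets. The genes were chosen with earlier results known, so these contrasts are a description and carry no weight as a test. Both chaperones differed by more than either transcription factor.

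ATERDJ3B encodes a J-domain co-chaperone of BiP in the ER lumen, known for its part in the maturation of the immune receptor EFR. Its log2 level was 10.75, 10.86 and 10.86 on the ka120 arrays, against 8.56, 8.53 and 8.65 on the WT arrays. The groups did not overlap, and the lowest ka120 array lay 2.095 above the highest WT array. The mean was 10.82 ± 0.07 in ka120 and 8.58 ± 0.06 in WT (log2, SD, n = 3 arrays each). The difference of 2.24 (SE 0.09, limma adjusted p = 2.73e-08) is 4.73-fold, with a 95% limma interval of 4.13 to 5.41. In the order of all differences from the highest down it stood at place 146.

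CRT1b encodes a calreticulin, a calcium-binding lectin chaperone that holds glycoproteins in the ER while they fold. Its log2 level was 10.89, 10.87 and 10.86 on the ka120 arrays, against 9.02, 8.91 and 8.78 on the WT arrays. The 3 ka120 arrays were nearly level (mean 10.87 ± 0.01), while the WT arrays were more spread (8.90 ± 0.12, SD, n = 3 each), and the groups lay 1.84 apart at their nearest arrays. The difference was 1.97 (SE 0.09, limma adjusted p = 9.04e-08), which is 3.92-fold with a 95% limma interval of 3.397 to 4.51. It stood at place 203 among all differences.

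BZIP60 encodes a transcription factor made with a membrane anchor. Under ER stress the sensor IRE1 splices its mRNA, and the spliced form codes for a factor that enters the nucleus. The log2 level of BZIP60 was 8.447, 8.465 and 8.607 on the ka120 arrays, against 7.497, 7.383 and 7.528 on the WT arrays. The groups did not overlap, with 0.92 between their nearest arrays. The mean was 8.51 ± 0.09 in ka120 and 7.47 ± 0.08 in WT (log2, SD, n = 3 each). The difference of 1.04 (SE 0.09, limma adjusted p = 8.26e-06) is 2.05-fold, with a 95% limma interval of 1.78 to 2.36. The probe set gives 1 level for the gene, so spliced and unspliced mRNA were not told apart.

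BZIP28 encodes a membrane-anchored factor that BiP holds in the ER and that moves to the Golgi under stress, where proteases cut off its nuclear part. Its log2 level was 7.73, 7.65 and 7.63 on the ka120 arrays, against 6.95, 6.98 and 6.98 on the WT arrays. The 3 WT arrays were the tightest set of the 4 genes after the ka120 arrays of CRT1b, and the nearest arrays of the groups were 0.65 apart. The mean was 7.67 ± 0.05 in ka120 and 6.97 ± 0.02 in WT (log2, SD, n = 3 each). The difference of 0.70 (SE 0.08, limma adjusted p = 7.53e-05) is 1.63-fold, with a 95% limma interval of 1.43 to 1.85. A larger positive difference was found for 7.31% of all probe sets, against 3.53% for BZIP60, 0.888% for CRT1b and 0.637% for ATERDJ3B. Transcript levels do not show whether the BZIP28 protein was cut.

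**Figure D1:**
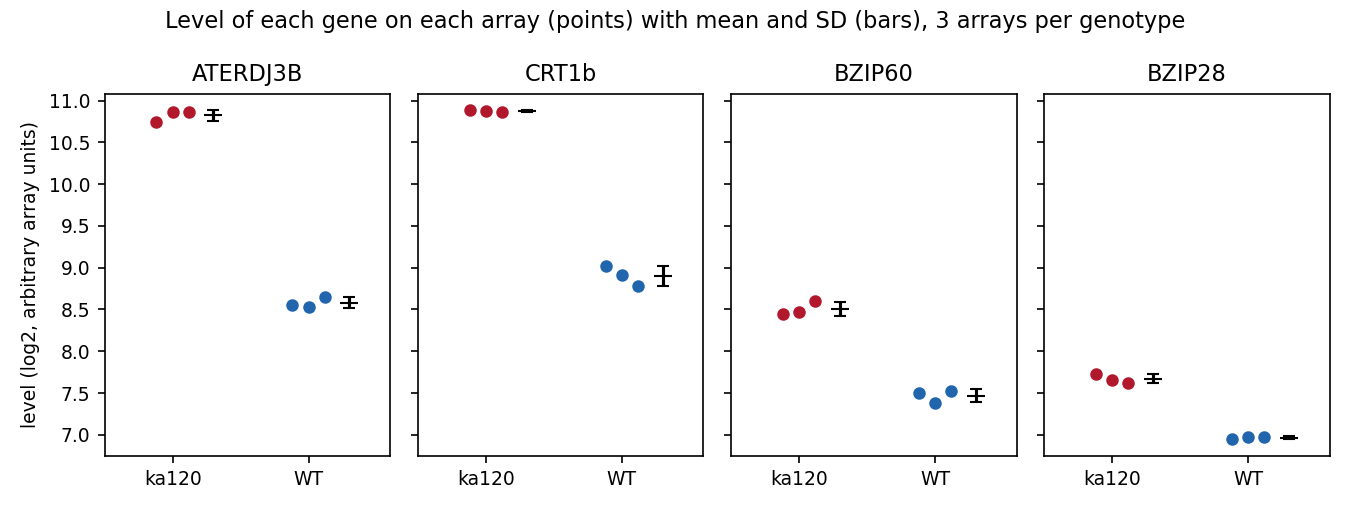
Log2 level (vertical axis) of the 4 genes on each of 3 ka120 arrays (red, left) and 3 WT arrays (blue, right), with the mean and SD as a black bar beside the points. In each panel all ka120 points lie above all WT points, with the gap between the nearest arrays at 2.095 for ATERDJ3B, 1.84 for CRT1b, 0.92 for BZIP60 and 0.65 for BZIP28.

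A 2-sided exact permutation test of each gene alone gave p = 0.1, the smallest value that 20 assignments of 3 against 3 arrays allow. The sizes of the differences were compared pair by pair from the log2 ratio of both genes on each array. ATERDJ3B differed between the genotypes by 1.20 (SE 0.05) more than BZIP60 and by 1.54 (SE 0.08) more than BZIP28. CRT1b differed by 0.93 (SE 0.11) more than BZIP60 and by 1.27 (SE 0.08) more than BZIP28, and BZIP60 by 0.33 (SE 0.09) more than BZIP28. In these 5 pairs the ratios of the ka120 arrays and of the WT arrays did not overlap (exact permutation p = 0.1 each, 0.12 adjusted over 6 pairs). Here too 0.1 is the smallest value before adjustment. How often pairs of other probe sets separate in this way was not computed, and the genes were chosen with earlier results known. ATERDJ3B and CRT1b differed from each other by 0.27 (SE 0.11), and their ratios overlapped between the genotypes (exact permutation p = 0.2, also 0.2 adjusted).

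**Figure D2:**
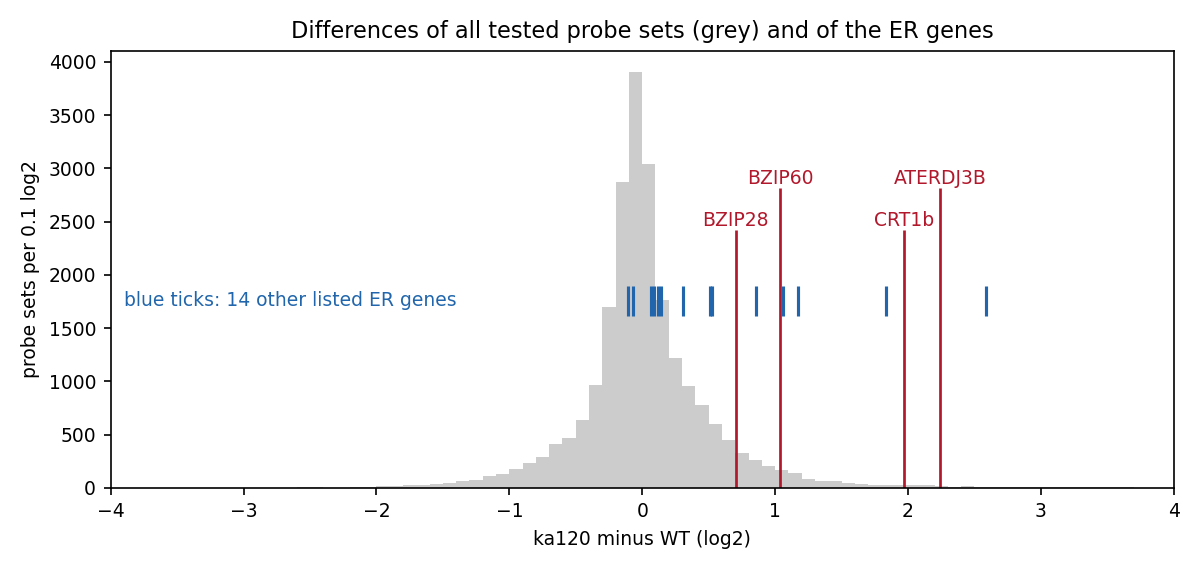
Number of probe sets (vertical axis) by log2 difference, ka120 minus WT (horizontal axis, bins of 0.1), with the 4 genes as red lines and 14 other listed ER genes as blue ticks. The grey distribution has a median of -0.02, and the red lines stand at 0.70, 1.04, 1.97 and 2.24; 22 probe sets beyond 4 in either direction are not drawn.

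The surrounding pathway was described with 4 lists of ER genes, which were also chosen with earlier results of these data known. The lists held 60 genes, 18 of them measured by a probe set of their own. Besides the 4 genes above, 14 of 56 were measured. Of these 14, 7 rose, 0 fell and 7 did not pass the test, with a median log2 difference of 0.41. Over all probe sets assigned to 1 gene 17.3% were called higher, and their median difference was -0.03. That share includes dim probe sets. With the dimmest 40% of probe sets left out, which kept all the measured ER genes, 4091 of 13647 were called higher. The 7 that rose had all ka120 arrays above all WT arrays, as did 23.8% of all probe sets. That separation is not independent of their call. BiP itself, the IRE1 sensors, calnexin CNX1, ERO1 and all but 1 of the listed disulfide isomerases were not analysed here.

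Among the chaperones, 4 of 6 measured genes were called higher and 2 were not called. Without ATERDJ3B and CRT1b it was 2 of 4, where 17.3% of all single-gene probe sets were called higher. With the dimmest 40% of probe sets left out, 4091 of 13647 were called higher. AT4G16660, which the list holds as the Hsp70-type chaperone HSP70-17 and which the gene table leaves without a name, had log2 levels of 7.40, 7.45 and 7.69 on the ka120 arrays, against 4.58, 5.15 and 5.05 on the WT arrays. Its difference of 2.58 (SE 0.15, limma adjusted p = 3.62e-07) was the largest of the 18 measured ER genes. AT5G07340, listed as calnexin CNX2 and likewise unnamed in the gene table, had 7.81, 7.96 and 7.84 on the ka120 arrays, against 5.96, 6.02 and 6.12 on the WT arrays. It rose by 1.83 (SE 0.09, limma adjusted p = 1.46e-07). Called genes thus came from the Hsp70, J-domain, calnexin and calreticulin families. Those of the J-domain and calreticulin families were ATERDJ3B and CRT1b, chosen with earlier results known. The other measured J-domain genes, ATERDJ2A and ATERDJ2B, were not called with the deposited values. ATERDJ2A and ATERDJ2B encode membrane J-domain proteins of the translocon, the channel through which proteins enter the ER. ATERDJ2A gave 0.14 (SE 0.10, limma adjusted p = 0.309), with overlapping groups.

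ATERDJ2B had 6.18, 6.33 and 6.71 on the ka120 arrays, against 5.46, 6.05 and 6.19 on the WT arrays, and its difference of 0.51 (SE 0.19) missed the threshold at a limma adjusted p of 0.0545. It was called higher when ka120 replicate 1 (0.63, adjusted p = 0.0473) or WT replicate 3 (0.66, adjusted p = 0.0246) was left out, and also when the replicate number was fitted as a block (adjusted p = 0.00552). It was also called without the dimmest 40% of probe sets (adjusted p = 0.0404), with a robust trended prior (adjusted p = 0.0337) and under both scalings on the controls (0.71 and 0.95, adjusted p = 0.00185 and 1.42e-06), in all in 7 of 17 alternatives. When WT replicate 1 was left out the difference was 0.29 (adjusted p = 0.161). PDIL5-1, the 1 measured gene of 15 disulfide isomerases and oxidases, gave 0.09 (SE 0.10, adjusted p = 0.551).

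Of 5 measured sensors and factors of the unfolded protein response, 3 were called higher, and 1 of 3 without BZIP60 and BZIP28. The share over all single-gene probe sets was 17.3%, and with the dimmest 40% of probe sets left out 4091 of 13647 were called higher. The 1 of 3 is near that latter share. BZIP17 encodes another membrane-anchored factor, a relative of BZIP28 known for its part in salt stress. Its log2 level was 7.48, 7.46 and 7.48 on the ka120 arrays, against 6.45, 6.26 and 6.21 on the WT arrays. The groups did not overlap, and the difference was 1.17 (SE 0.09, limma adjusted p = 3.79e-06). The transcripts of the proteases that release BZIP28 and BZIP17 were measured as well: S1P gave 0.07 (SE 0.09, adjusted p = 0.624), and AT4G20310, listed as S2P, gave -0.10 (SE 0.15, adjusted p = 0.661). BZIP17 was thus the 1 factor called besides BZIP60 and BZIP28, which were chosen with earlier results known. For both proteases the groups overlapped. A difference between factors and proteases was not tested.

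ER-associated degradation carries misfolded proteins out of the ER for destruction. Of its 6 measured genes 4 were called higher, against 17.3% of all single-gene probe sets. With the dimmest 40% of probe sets left out, 4091 of 13647 were called higher. OS9, a lectin that recognises misfolded glycoproteins, had 6.54, 6.30 and 6.52 on the ka120 arrays, against 5.37, 5.54 and 5.28 on the WT arrays, a difference of 1.06 (SE 0.11, limma adjusted p = 2.06e-05). UBC32, a ubiquitin-conjugating enzyme of the ER membrane, had 7.60, 7.70 and 7.78 on the ka120 arrays, against 6.82, 6.94 and 6.74 on the WT arrays, a difference of 0.86 (SE 0.09, adjusted p = 4.04e-05). AT4G29960, listed as the degradation factor EBS7, rose by 0.53 (SE 0.10, adjusted p = 0.00157). For these 3 genes the lowest ka120 array lay above the highest WT array, as it did for 23.8% of all probe sets.

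The derlins, membrane proteins thought to form part of the exit channel, were less uniform. DER2.1 was called higher by 0.31 (SE 0.10, limma adjusted p = 0.0408), with 8.16, 7.89 and 8.06 on the ka120 arrays, against 7.61, 7.86 and 7.71 on those of WT. That call did not survive the omission of ka120 replicate 1 (0.25, adjusted p = 0.165) or replicate 3 (0.30, adjusted p = 0.111), nor that of WT replicate 1 (0.25, adjusted p = 0.117) or replicate 3 (0.30, adjusted p = 0.0853). A fit with the replicate block (adjusted p = 0.0724) and median centring (0.18, adjusted p = 0.179) lost it too. DER1 gave 0.12 (SE 0.10) at the brighter of its 2 probe sets and 0.03 (SE 0.09) for the mean of both. DER2.2 gave -0.07 (SE 0.12), and neither gene was called.

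**Figure D3:**
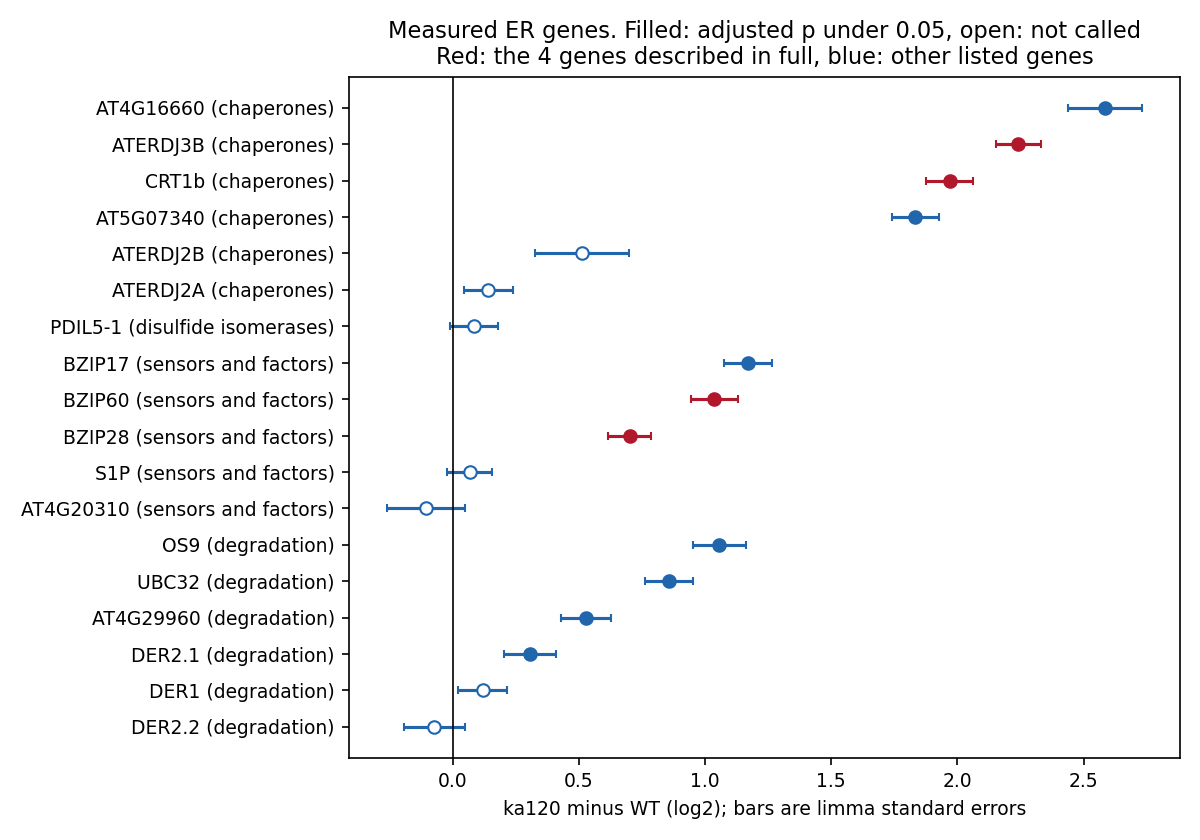
Log2 difference, ka120 minus WT (horizontal axis, bars are limma standard errors), of the 18 measured ER genes grouped by role (vertical axis). The 4 genes described in full are red and the others blue, and filled points passed an adjusted p of 0.05. Filled points run from 0.31 (DER2.1) to 2.58 (AT4G16660), and open points from -0.10 to 0.51.

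EFR, the receptor kinase for bacterial elongation factor Tu that depends on ATERDJ3B for its maturation, was dim on all arrays, at 3.44, 3.27 and 3.58 in ka120 and 3.28, 3.29 and 3.30 in WT. Its difference was 0.14 (SE 0.10, limma adjusted p = 0.318), and its level was not shown to exceed background. It was the 1 measured gene of 7 in the list of immune regulators and receptors. The annotation assigned no probe set to any of the 12 listed cytosolic heat shock genes or 9 listed plastid and mitochondrial chaperones alone. It gave no gene for 8730 of 22746 probe sets, so the array may still hold probes for them.

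The probe sets closest in pattern to each gene were found among all single-gene probe sets, as those with the smallest root mean square difference over the 6 arrays after each was centred on its own WT mean. For ATERDJ3B these were AT5G24210 (0.09 on the log2 scale), Hsp70-2 (AT5G02490, 0.12) and AT4G17670 (0.14). Hsp70-2 belongs to the cytosolic Hsp70 family and had 7.757, 7.783 and 7.719 on the ka120 arrays, against 5.498, 5.474 and 5.304 on the WT arrays. It was called higher by 2.33 (SE 0.09, limma adjusted p = 2.63e-08). A rise near that of ATERDJ3B was set by the search, so it says nothing about cytosolic chaperones as a group. As a chaperone gene outside the ER was among those that rose, the rise is not shown to be particular to ER chaperones. For CRT1b they were AT5G42830 (0.06), BGLU25 (0.07) and AT1G74440 (0.08). BZIP60 was closest to AT3G59570 (0.05), LOJ (0.05) and AT4G33540 (0.06), and BZIP28 to AT5G11560 (0.03), AT1G50920 (0.04) and AT2G01740 (0.04). This likeness describes 6 arrays and carries no test.

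Several measurements of the arrays moved with the genotype. Array medians lay between 4.75 and 4.79 in ka120 and between 4.63 and 4.66 in WT. Arrays of 1 genotype correlated across probe sets at r between 0.993 and 0.997, and arrays of different genotypes between 0.961 and 0.965 (genes are not independent replicates). Hybridization controls, bacterial and phage transcripts added to each sample in fixed amounts, were lower in ka120 for 3 of 4: BioB differed by -0.44 (SE 0.07), BioC by -0.26 (SE 0.06), BioD by -0.13 (SE 0.05) and Cre by 0.02 (SE 0.05). BioB, BioC and BioD thus shifted in the direction opposite to the 4 genes, and Cre by less than its SE. The WT level of BioB, the dimmest of them, exceeded that of 87.0% of probe sets, so these controls give no measurement at the levels of most probe sets. The KA120 probe set itself gave 3.65, 4.12 and 4.17 in ka120 and 4.55, 4.34 and 4.42 in WT, a dim signal and a weak check of the genotype (-0.45, limma adjusted p = 0.0222). It missed the threshold when ka120 replicate 1 (-0.29, adjusted p = 0.0817) or WT replicate 1 (-0.40, adjusted p = 0.0603) was left out, under both scalings on the controls (adjusted p = 0.18 and 0.917) and with an ordinary t statistic (adjusted p = 0.152).

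**Figure D4:**
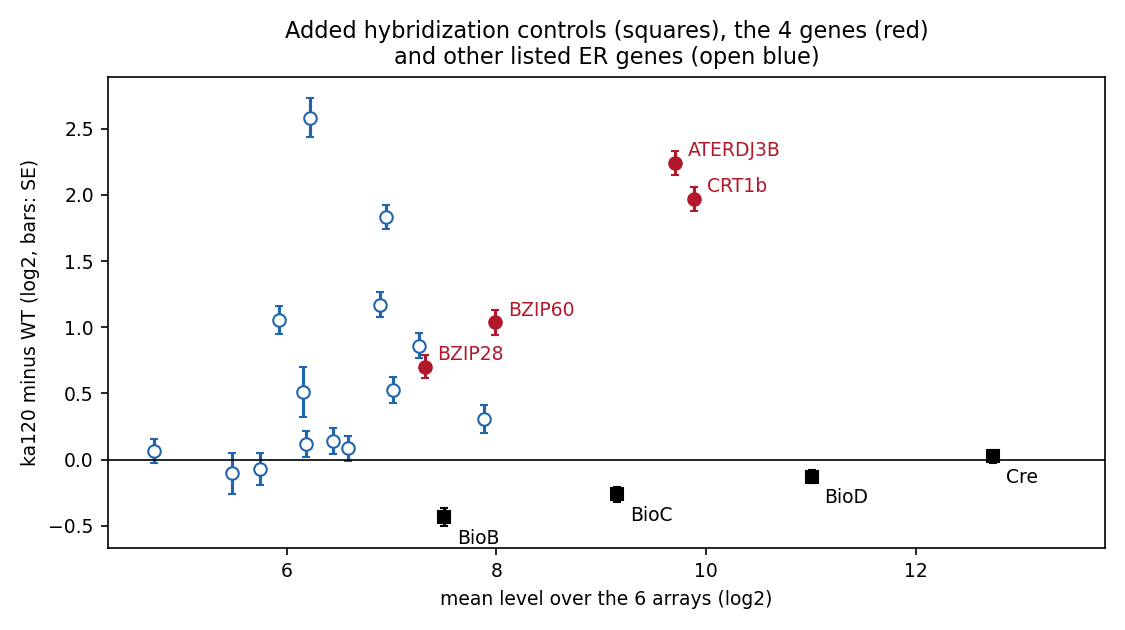
Log2 difference, ka120 minus WT (vertical axis, bars are SE), against the mean log2 level over the 6 arrays (horizontal axis) for 4 hybridization controls (black squares), the 4 genes (red) and 14 other listed ER genes (open blue). The controls run from -0.44 (BioB) to 0.02 (Cre), and the 4 genes lie above them at 0.70 to 2.24.

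The 4 genes were also fitted under other scalings. All 4 were called higher under each. The share of all probe sets called higher was 17.9% after quantile normalization and 14.6% after median centring. It was 31.9% once arrays were centred on the hybridization controls. It was 68.0% once the shift of those controls, interpolated by level between them and held at that of BioB below its level, had been taken off each probe set, so the call under that scaling says little about any single gene. The median of all differences moved from the -0.02 of the deposited values to -0.15 with median centring, 0.18 with control centring and 0.41 with the shift taken off by level. Set against that median, ATERDJ3B stood higher by 2.06 to 2.32 over all settings tried, CRT1b by 1.77 to 2.06, BZIP60 by 0.998 to 1.09 and BZIP28 by 0.68 to 0.74.

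**Figure D5:**
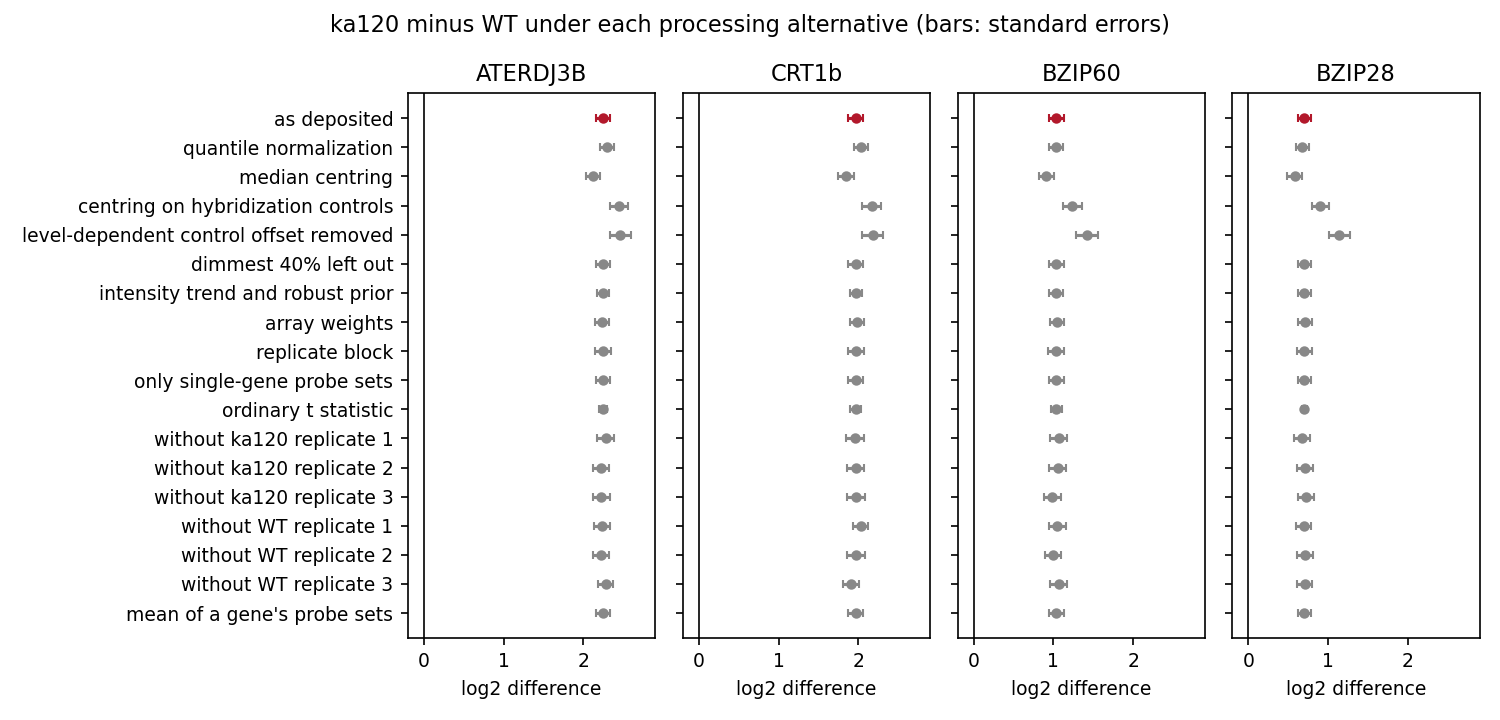
Log2 difference, ka120 minus WT (horizontal axis, bars are standard errors), of the 4 genes for the deposited values (red, top row) and under 17 alternatives (grey). The values run from 2.12 to 2.46 for ATERDJ3B, 1.85 to 2.18 for CRT1b, 0.91 to 1.42 for BZIP60 and 0.58 to 1.14 for BZIP28.

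The labelled tissue was checked against marker genes. Of 13 leaf mesophyll markers 6 were measured, all brighter in WT than at least 96.3% of probe sets. In ka120 5 of these 6 fell and 1 was not called, where 16.5% of all probe sets were called lower. Under every alternative 4 or 5 of the 6 were called lower. Like the ER lists, these markers were chosen with earlier results of these data known, so the count is a description and no test. Their summed linear signal was 19704 to 20445 on the ka120 arrays, against 26035 to 28482 on the WT arrays. Of 4 root markers 3 were measured: EXPA7 and EXPA18 were dim and not called, and PYK10, a beta-glucosidase of ER-derived bodies, rose by 0.98 (SE 0.26, limma adjusted p = 0.011), a call lost without ka120 replicate 3 (0.82, adjusted p = 0.054) and with an ordinary t statistic (adjusted p = 0.163). EXPA18 was called lower without WT replicate 3 (-0.40, adjusted p = 0.0375), with median centring (-0.43, adjusted p = 0.024) and with the replicate block (adjusted p = 0.0371), and EXPA7 higher with the control shift taken off by level (0.42, adjusted p = 0.00599). The summed linear signal of the root list, most of it from PYK10, was 251 to 361 on the ka120 arrays, against 123 to 243 on the WT arrays. SAG29, the 1 measured of 3 senescence markers, fell by 0.71 (not called with the control shift taken off by level, at -0.28, or with an ordinary t statistic, adjusted p = 0.104) and TRY, the 1 measured of 2 trichome markers, by 1.07, while both measured genes of 3 for the stomatal lineage were not called (FAMA was called higher with the control shift taken off by level, 0.40, adjusted p = 0.0102). The flower and seed markers were not analysed here. The part of these shifts in the higher levels of the ER genes was not tested.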

How the data were processed

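Biotin-labelled RNA of 3 ka120 and 3 WT samples was measured on 1 expression array each, per the labels. The deposited table gives a log2 level for each probe set, judged from its range of values. The submitters' processing notes name the affy package; no version, background correction, normalization or summary step is stated in the sources used here. Of 22810 probe sets 64 array controls were left out. Of the remaining 22746 the platform annotation, updated to TAIR10.1 symbols through gene identifiers, gave 1 gene for 13513 (13436 with a locus), several for 503 and none for 8730.

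Samples were grouped by title. Differences were fitted across all 22746 probe sets with limma 3.58.1 (lmFit, eBayes, no block, no filter) in R 4.3.3, with Benjamini-Hochberg adjustment and a threshold of 0.05. The fit was checked on simulated data with independent noise and planted changes. The simulation held no shift of whole arrays between genotypes, so it does not bear on the scaling. The number of arrays limits the precision. A listed gene was represented by its brightest single-gene probe set. The named genes are the 4 members, every measured listed gene and the 3 probe sets most like each member. The members and lists were chosen with earlier results of these data known. A promoter and protein motif search was planned and not run, since no sequences were used here. Alternatives are given in the closing section. Those for the KA120 probe set were chosen after seeing the data.

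Arrays with the same replicate number had deviations from their group means that correlated at -0.01, -0.19 and 0.13, so the numbers were not taken to pair the samples.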

Additional observations from a re-analysis of the deposited data

How the results depend on the processing

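All 4 genes kept their direction and their call in each of 17 alternatives: 4 scalings, a replicate block, array weights, a robust trended prior, the ordinary t statistic of the same linear model, omission of the dimmest 40% of probe sets, use of single-gene probe sets only, averaging of probe sets per gene, and omission of each array in turn. Only the 4 scalings could have turned the direction of these genes. In the other alternatives the difference stayed the same, or arrays of groups that do not overlap were weighted or left out. The largest adjusted p-values of the 4 genes, all with the ordinary statistic, were 0.00155 (ATERDJ3B), 0.00217 (CRT1b), 0.00399 (BZIP60) and 0.00263 (BZIP28). Leaving out 1 array moved ATERDJ3B between 2.22 and 2.28, CRT1b between 1.91 and 2.03, BZIP60 between 0.99 and 1.07 and BZIP28 between 0.67 and 0.72. Of the 7 other ER genes called higher, 6 were called in all 17 alternatives and DER2.1 in 10; it was also lost with the ordinary statistic (adjusted p = 0.118). The count of 7 became 11 when centred on the hybridization controls and 14 with their level-dependent offset removed. Under these scalings the prior degrees of freedom were 14.8 and 41.8, against 6.65 for the deposited values, and the effect of this on the adjusted p-values was not tested. Over all probe sets, higher and lower calls (4405 and 3760) became 7255 and 2072 under the first of these, 15475 and 1382 under the second, and 2302 and 2045 with single-gene probe sets only, where fewer were tested; lower calls became 6235 after median centring. With a replicate block 4271 were higher and 3597 lower. Signs turned for genes not called with the deposited values: PDIL5-1 (-0.039), S1P (-0.056) and DER1 (-0.0048) after median centring, S1P (-0.051) after quantile normalization, and AT4G20310 (0.096 and 0.33) and DER2.2 (0.13 and 0.37) under the control-based scalings. With the level-dependent offset removed AT4G20310 and DER2.2 were called higher (limma adjusted p = 0.0382 and 0.0171). With 1 array left out AT4G20310 ran from -0.29 to 0.012 and DER2.2 from -0.20 to 3.47e-05, both highest without ka120 replicate 3.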
